A study of Mus musculus with 48 samples.

Results

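The transcripts described here are those of the mouse mitochondrial genome, chosen as every row of the deposited gene count table whose chromosome is MT. There are 13 such genes among the 36935 genes of the table, and all 13 encode proteins. Mitochondrial rRNA and tRNA genes were not analysed here.

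The counts come from the E14 mouse embryonic stem cell line and 3 knockout lines made from it, followed through neuronal differentiation. The groups are KAT6A-/-; KAT6B-/- cells (the double knockout), KAT6A-/- cells, KAT6B-/- cells and E14 wildtype cells, each at days 0, 2, 6 and 15 with 3 libraries from 3 independent differentiations, which makes 16 groups and 48 libraries. Day 0 cells were undifferentiated stem cells, day 2 cells were embryoid bodies grown without LIF, day 6 embryoid bodies had received 10 µM all-trans retinoic acid from day 4, and day 15 cells had been dissociated at day 8 and plated in N2 and B27 media. KAT6A and KAT6B are histone H3 acetyltransferases of the MYST family, and the labels do not say how many clones each knockout line represents. Kat6a counts in the lines that lack KAT6A, and Kat6b counts in those that lack KAT6B, were measurable at every day, with Kat6a at 80.2 to 117 CPM in the KAT6A and double knockouts at day 0 and 119 to 157 CPM in E14. Kat6b stood at 181 to 254 CPM in the KAT6B and double knockouts at day 0 and 252 to 376 CPM in E14. At day 15 Kat6b overlapped with E14 (90.3 to 105 CPM), at 73.3 to 126 CPM in the KAT6B knockout and 80.6 to 107 CPM in the double knockout. Kat6a at day 15 was 99.3 to 107 CPM in the KAT6A knockout, 95.3 to 129 CPM in the double knockout and 172 to 214 CPM in E14. Marker genes at day 15 were mixed in E14. There, the sum of 8 neuron markers was 1406 to 2486 CPM at day 15 against 332.2 to 351.6 CPM at day 0, and the sum of 8 mesenchyme markers was 1601 to 4234 CPM at day 15 against 186.6 to 296 CPM at day 0. The neuron sum of the double knockout was 144 to 861.8 CPM at day 15 against 228.5 to 259.8 CPM at day 0. In the KAT6B knockout it was 65.22 to 909.4 CPM at day 15 against 249.5 to 270.1 CPM at day 0. For the KAT6A knockout the ranges were 336.4 to 1334 CPM at day 15 and 298.3 to 318.2 CPM at day 0.

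Mitochondrial DNA is transcribed from both strands into long precursors, which are cut into separate RNAs, mostly at the tRNAs that lie between the genes. The mRNAs encode the membrane core of the respiratory chain. Nd1 to Nd6 and Nd4l are subunits of complex I (NADH dehydrogenase), Cytb is a subunit of complex III, Co1 to Co3 form the catalytic core of complex IV (cytochrome c oxidase), and Atp6 and Atp8 belong to the ATP synthase. Of the 13 genes, 12 are read from one direction of the genome, in the order Nd1, Nd2, Co1, Co2, Atp8, Atp6, Co3, Nd3, Nd4l, Nd4, Nd5 and Cytb, and Nd6 alone is read from the opposite strand. Steady levels of the separate mRNAs differ although most share a precursor, in part because they are degraded at different rates. The deposited symbols carry the prefix mt-. On the mitochondrial genome Nd1 spans bases 2751 to 3707, Nd2 3914 to 4951, Co1 5328 to 6872, Nd4 10167 to 11544, Nd5 11742 to 13565 and Cytb 14145 to 15288, and Nd6 lies between Nd5 and Cytb at 13552 to 14070.

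The genes fell into those that were well counted and those that were almost not counted, and the division follows a nuclear copy of the mitochondrial genome. Co2, Atp8, Atp6, Co3, Nd3 and Nd4l lie wholly within bases 6390 to 11042 of the mitochondrial genome (GRCm38), a stretch of 4653 bases that is present on chromosome 1 at 24611535 to 24616197, minus strand, as 7 annotated pseudogenes. Of 4140 bases that could be aligned between the genes and these copies, 4138 (99.95%) were identical. The differences were A1066T in Co1 and T3C in Nd3, with the mitochondrial base first and positions counted from 1 at the first base of each gene. A stretch of mt-Co2 (MT, 7457 to 7516, plus strand, bases 445 to 504 of the gene) is printed to show why a read from there has more than one possible origin. It is set beside its copy Gm28661 in the chromosome 1 block, which is identical, and beside Gm13341, a second copy, a pseudogene at 22587291 to 22587962 of chromosome 2 (minus strand), whose 6 differing bases are in capitals.
mt-Co2: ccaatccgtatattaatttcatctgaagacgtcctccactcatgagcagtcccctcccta
Gm28661: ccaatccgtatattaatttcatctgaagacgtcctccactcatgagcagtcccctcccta
Gm13341: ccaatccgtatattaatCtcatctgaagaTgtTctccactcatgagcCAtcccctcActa

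For contrast, mt-Cytb (MT, 14970 to 15029, plus strand, bases 826 to 885 of the gene) has no copy in that block. Its nearest annotated copy, the pseudogene Gm11410 at 80003989 to 80005131 of chromosome 4 (plus strand), differs at 8 of these positions, shown in capitals. The sequences are from GENCODE M21 on GRCm38.
mt-Cytb: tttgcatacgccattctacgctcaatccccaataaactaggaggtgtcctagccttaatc
Gm11410: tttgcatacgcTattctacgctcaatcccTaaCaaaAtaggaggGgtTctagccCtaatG

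The 6 genes inside the block had few counts in every library. Median levels over the 48 libraries were 8.48 CPM for Co2, 4.23 CPM for Atp6, 3.37 CPM for Co3, 1.03 CPM for Atp8, 0.661 CPM for Nd4l and 0.162 CPM for Nd3, for which 3 libraries held 0 counts and the highest held 35. Together they gave 0.153% of all mitochondrial counts. Nd1, Nd2, Nd5, Nd6 and Cytb lie outside the block, and Co1 and Nd4 lie partly inside it (31.26% and 63.57% of their length). These 7 genes had at least 4087 counts in every library and medians of 235 to 6529 CPM. Per length, the lowest median of the 7 (Nd6, 453.4 CPM per kb) was 36.6 times the highest median of the 6 (Co2, 12.4 CPM per kb), and no library overlapped between the classes. The share of 150-base windows (the read length) that are identical to the chromosome 1 copy was 96.98% to 99.84% for Co2, Atp6, Co3, Nd3 and Nd4l, 59.15% for Nd4, 23.64% for Co1 and 0% for Nd1, Nd2, Nd5, Nd6 and Cytb. Atp8 lies inside the block by position, but the annotated pseudogenes cover only the 43 bases it shares with Atp6, so its share could not be computed. How reads with several equal alignments were counted is not given in the sources used here, and the levels and changes of the 6 genes are therefore uncertain and are given only in passing.

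**Figure D1:**
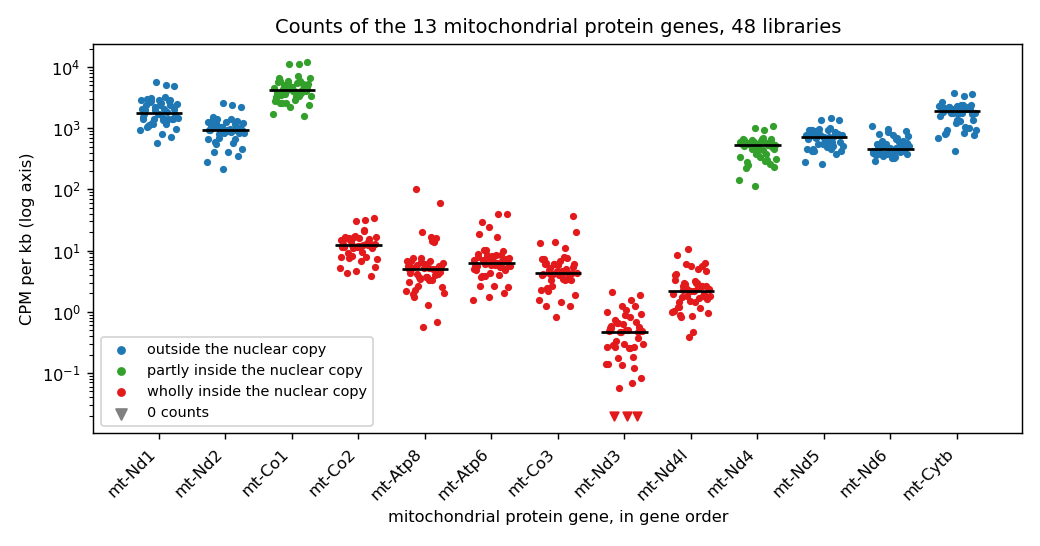
CPM per kb (log axis) of each of the 13 mitochondrial protein genes in each of 48 libraries, in gene order, with the median as a line and triangles at the bottom for the 3 libraries with 0 Nd3 counts. The 6 genes wholly inside the chromosome 1 copy have medians of 0.466 to 12.4 CPM per kb, and the other 7 have medians of 453.4 to 4226 CPM per kb.

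Co1 was the most abundant of the 7 well counted mRNAs and gave 49.1% of all mitochondrial counts, a total that hardly includes the 6 genes inside the nuclear copy. Its median was 4226 CPM per kb, and it was above the next gene, Cytb (1898 CPM per kb), in 48 of 48 libraries. Cytb and Nd1 (1786 CPM per kb) exchanged places. Cytb was above Nd1 in 12 of 48 libraries, and these were the 12 libraries of day 15. Nd2 (932.4 CPM per kb) was below Nd1 in all 48, and above Nd5 (723.4 CPM per kb) in 41. Nd5 was above Nd4 (530.4 CPM per kb) in all 48, and Nd4 was above Nd6 in 29. Counted only over the bases outside the nuclear copy, Co1 stood at 6148 CPM per kb and Nd4 at 1456 CPM per kb, which puts Nd4 above Nd2 in all 48 libraries, so the place of Nd4 in the order depends on how its copied bases are treated.

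The question of the time course is how the cells change from stem cells to plated neural cells. Mitochondrial counts took 0.539% to 3.16% of a library (median 1.40%), and of the 4 days the mean share was highest at day 2 in every genotype. The double knockout averaged 1.51% at day 0, 2.14% at day 2, 1.25% at day 6 and 1.11% at day 15. At the same days the KAT6A knockout averaged 1.27%, 2.20%, 1.33% and 1.15%, the KAT6B knockout 1.45%, 2.03%, 1.37% and 1.08%, and E14 1.00%, 1.77%, 0.977% and 1.37%. The SD over the 3 libraries was 0.095 to 0.982 percentage points in the knockouts and 0.126 to 0.489 in E14. Within the knockouts the day 2 mean was raised by 1 library each. These were replicate 3 of the double knockout (3.10%), replicate 3 of the KAT6A knockout (3.02%) and replicate 2 of the KAT6B knockout (3.16%), while the other knockout libraries of day 2 lay at 1.40% to 2.12%. In these bulk samples, fewer cells of a type and less RNA per cell cannot be told apart.

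**Figure D2:**
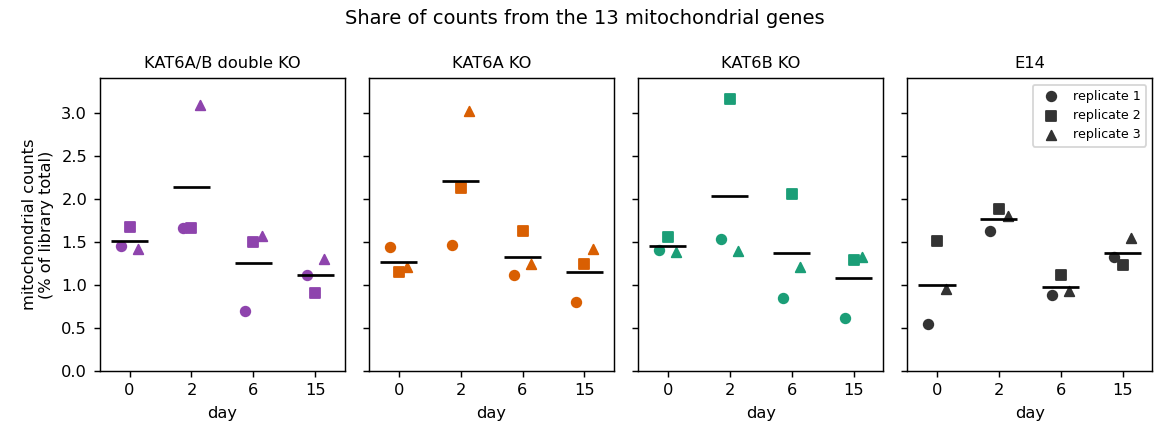
Mitochondrial counts as percent of the library total (y axis) by day (x axis), 1 panel per genotype, with the 3 replicates as symbols and their mean as a line. The highest libraries are the 3 knockout libraries of day 2 above 3%, and the lowest are replicate 1 of E14 at day 0 (0.539%) and of the KAT6B knockout at day 15 (0.617%).

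Day 2 was marked by a higher level of Co1. In E14 Co1 was at 8806, 10290 and 9314 CPM at day 2, against 2662, 6926 and 4346 CPM at day 0. All 3 libraries of day 2 were above those of day 0, and the log2 fold change was 1.02 ± 0.25 (SE, as for all log2 fold changes here; adjusted p = 0.0118, edgeR quasi-likelihood test). Nd5 was at 1463, 1679 and 1702 CPM at day 2 against 514.5, 1391 and 835.2 CPM at day 0 (0.81 ± 0.25, adjusted p = 0.0348, edgeR), again without overlap. Of the 7 well counted genes these 2 did not overlap, where 40.9% of all genes did not. With Atp6, 3 of the 12 members that passed the filter on low counts were higher and 0 lower, where 21.6% of all genes tested changed in either direction and 9.5% rose. Nd3 did not pass the filter. Nd6 was at 213.6, 289.2 and 263.7 CPM at day 2 against 556, 223.8 and 207.9 CPM at day 0 (log2 fold change -0.39 ± 0.35, adjusted p = 0.446). Replicate 1 of E14 at day 0 was low for the 6 well counted genes other than Nd6, which sum to 5345 CPM there against 15950 and 10150 CPM in the other two, and high for Nd6. Without it, or without replicate 1 or replicate 3 of day 2, 1 member rose at day 2, and it was Co1. Without replicate 2 of day 2 the 1 member that rose was the copied gene Atp6 (1.59, adjusted p = 0.0496, edgeR), and Co1 was not called. Without replicate 2 of day 0 the number that rose was 8, and without replicate 3 of day 0 it was 0.

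A fit of all 48 libraries with genotype and day as additive terms, added after the data were seen, uses 12 libraries a day and leans less on that library. It takes the change between days to be the same in every genotype, knockouts included. In it Co1 was 0.83 ± 0.17 higher at day 2 than at day 0 on the log2 scale (adjusted p = 0.000112, edgeR) and Nd5 0.51 ± 0.16 higher (adjusted p = 0.00897). Nd1 (0.25 ± 0.19) and Cytb (0.24 ± 0.18) did not pass. In all, 5 of the 13 members rose and 0 fell, where 46.6% of all genes changed, 22% rose and 24.6% fell. With each library corrected for the GC content of the transcripts, also added after the data were seen and called GC correction here, Nd5 no longer passed (0.21, adjusted p = 0.124, edgeR). The correction works on deviations from each gene's mean over all libraries of a fit. It therefore also takes out differences between days that go with GC content, and how much it took out was not tested. Over the 12 libraries of a day the Co1 median was 9258 CPM at day 2 (range 7362 to 18910) against 6652 CPM at day 0 (range 2662 to 8022).

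At day 6 Cytb, Nd1, Nd4, Nd2 and Nd5 were lower than at day 0 in the fit over 4 genotypes, and Co1 and Nd6 did not pass the test. With 4 of the copied genes (Co2, Atp8, Atp6 and Nd3), 9 of 13 members fell and 0 rose, where 71.7% of all genes changed, 36.6% rose and 35.2% fell. Cytb changed by -0.99 ± 0.18 (log2, adjusted p = 4.56e-06, edgeR), with a median of 1068 CPM at day 6 against 2352 CPM at day 0. Nd1 changed by -0.90 ± 0.20 (adjusted p = 7.57e-05, edgeR), with a median of 1236 CPM at day 6 against 2630 CPM at day 0. Nd4, Nd2 and Nd5 were lower as well, with log2 fold changes of -0.69 ± 0.19, -0.65 ± 0.22 and -0.42 ± 0.16. Co1 had a log2 fold change of -0.12 ± 0.17 (adjusted p = 0.532; -0.32 with GC correction, adjusted p = 0.0315, edgeR) and Nd6 one of 0.22 ± 0.18 (adjusted p = 0.267). Within E14 alone 3 members fell and 0 rose, where 50% of all genes changed and 24.2% fell. Nd1 was at 993.9, 1028 and 1079 CPM in E14 at day 6 against 889.4, 2812 and 1971 CPM at day 0 (-0.85 ± 0.28, adjusted p = 0.0227), so the groups overlapped through replicate 1 of day 0. Cytb had a log2 fold change of -0.80 ± 0.28 (adjusted p = 0.0309) and Atp8, of the copied genes, one of -1.27 ± 0.44 (adjusted p = 0.0273). Without replicate 1 of day 0, 6 members fell, without replicate 3 of day 0 it was 1, and without any of the 4 other libraries of these days it was 0. With plain library totals in place of TMM the median over all genes moved to 0.36 in E14 and 0.39 over the 4 genotypes. On that scale no member was called in E14. Over 4 genotypes 3 members fell, Nd1 and Cytb among them, and Nd6 rose (0.58, adjusted p = 0.00249, edgeR), where 16767 of 22626 genes were called.

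At day 15 Nd1 was the well counted gene called lower. In the fit over 4 genotypes Nd1 was lower than at day 0, with a log2 fold change of -0.94 ± 0.20 (adjusted p = 3.11e-05, edgeR), and with Atp8 and Nd3 as the other members that fell it made 3 of 13, where 82.3% of all genes changed, 42.6% rose and 39.7% fell. Nd2 (-0.35 ± 0.22), Co1 (-0.25 ± 0.17), Nd4 (0.19 ± 0.19), Nd5 (0.12 ± 0.16), Cytb (0.07 ± 0.18) and Nd6 (-0.14 ± 0.18) did not pass. These values average over genotypes whose means moved differently. Mean Cytb was 2769 CPM at day 15 against 1761 CPM at day 0 in E14, and 2263 against 2266 CPM in the KAT6A knockout. It was 2174 against 2497 CPM in the double knockout and 2086 against 2412 CPM in the KAT6B knockout. With GC correction 10 of 13 members were lower at day 15, where 18764 of 22626 genes were called in either direction. Among the 10 were Nd1 (-1.28), Nd2 (-0.92), Nd6 (-0.85), Co1 (-0.41), Nd4 (-0.38) and Nd5 (-0.27), while Cytb (-0.15) did not pass. Nd1 was at 1142 to 1378 CPM in the double knockout at day 15 against 2609 to 2931 CPM at day 0. In the KAT6A knockout it was at 777.9 to 1422 CPM at day 15 against 2269 to 2743 CPM at day 0, and in the KAT6B knockout at 687.9 to 1359 CPM at day 15 against 2312 to 2812 CPM at day 0. The groups did not overlap in any of the knockouts, where 71.5%, 73.7% and 65.5% of all genes did not overlap in the double, KAT6A and KAT6B knockouts. In E14 they did, with 1447, 1375 and 1629 CPM at day 15 against 889.4, 2812 and 1971 CPM at day 0.

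In E14 alone the fit called other members at day 15. Nd4 (0.80 ± 0.33, adjusted p = 0.0442), Nd5 (0.68 ± 0.25, adjusted p = 0.0272), Cytb (0.69 ± 0.28, adjusted p = 0.0426) and the copied gene Nd4l (1.56 ± 0.66, adjusted p = 0.0493) were higher. Nd6 was lower, at 203, 150.3 and 189.5 CPM at day 15 against 556, 223.8 and 207.9 CPM at day 0 (-0.84 ± 0.35, adjusted p = 0.0442), and it was the 1 well counted gene whose groups did not overlap, where 72.4% of all genes did not. These are 4 members higher and 1 lower of 12, where 69.7% of all genes changed, with 36.5% of all genes higher and 33.2% lower. None of the 4 higher calls held with GC correction, where Nd4 stood at -0.09, Nd5 at 0.00, Cytb at 0.30 and Nd4l at 1.26, and the 3 members called were all lower (Nd1 -0.88, Atp8 -1.85 and Nd6 -2.42; adjusted p = 0.000243, 0.000319 and 0.00163, edgeR). Cytb was at 2717, 2525 and 3066 CPM at day 15 against 791.3, 2661 and 1830 CPM at day 0, so replicate 2 of day 0 lay within the day 15 range. Without replicate 1 of E14 at day 0, the 1 member called was Nd1, which was lower (-0.64, adjusted p = 0.00474, edgeR). Nd6 and the 4 higher members were then not called. Without replicate 2 of day 0, 8 were higher and 1 lower. Without replicate 3 of day 0 or replicate 1 of day 15 it was 1 member, without replicate 2 of day 15 it was 3, and without replicate 3 of day 15 it was 0.

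**Figure D3:**
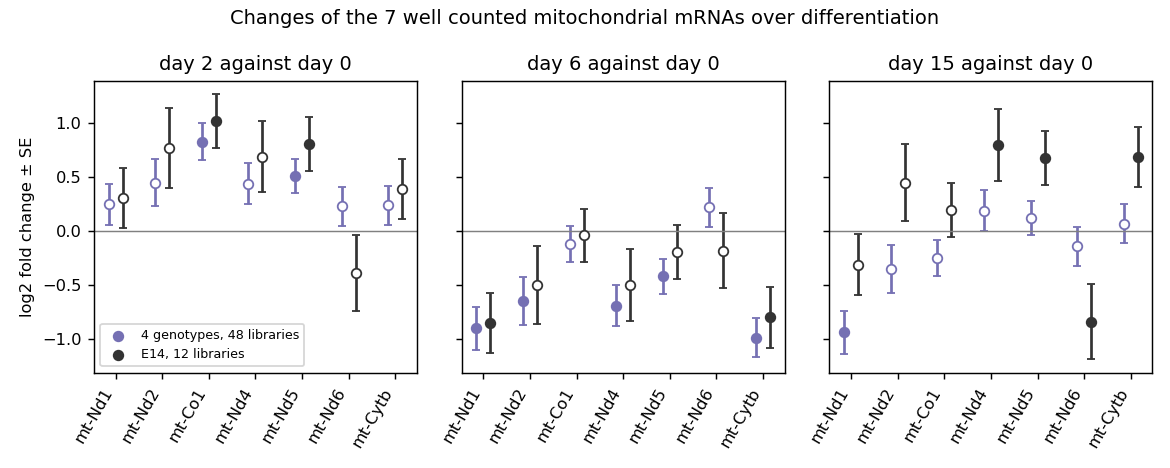
Log2 fold change ± SE (y axis) of the 7 well counted mitochondrial mRNAs (x axis, in gene order) at days 2, 6 and 15 against day 0, from the fit over 4 genotypes (purple) and over E14 alone (black), with filled points for adjusted p under 0.05. Co1 is the highest point of the 4-genotype fit at day 2 (0.83), Cytb the lowest at day 6 (-0.99) and Nd1 the lowest at day 15 (-0.94).

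The ratio of mitochondrial mRNAs within a library needs no scaling between libraries. For each Nd1 count there were 0.868 to 1.01 Cytb counts in the 12 libraries of day 0, 0.780 to 1.12 at day 2, 0.679 to 0.995 at day 6 and 1.68 to 2.02 at day 15. The day 15 libraries did not overlap with any library of the other days. The ratio at day 15 was 1.77 ± 0.09 in the double knockout, 1.94 ± 0.02 in the KAT6A knockout, 1.83 ± 0.17 in the KAT6B knockout and 1.87 ± 0.02 in E14 (SD, n = 3 each). At day 0 it was 0.908 ± 0.040, 0.900 ± 0.053, 0.935 ± 0.066 and 0.922 ± 0.029 in the same genotypes. The log2 difference of day 15 from day 0 was 1.01 ± 0.07 (SD over 4 genotypes; two-sided exact permutation test of day labels within genotypes, p = 1.25e-05, the smallest that the 160000 arrangements can give; adjusted p = 3.75e-05 over 18 ratio tests). The direction was the same in 4 of 4 genotypes. In E14 alone, 3 libraries against 3 cannot reach a two-sided p below 0.10. The ratios and their denominator were picked after their values were seen, so these p describe the libraries and are no independent support. All ratios here share Nd1, the well counted gene called lower at day 15 in the fit over 4 genotypes, so a lower Nd1 raises every one of them and they do not count as separate results. The ratio of Co1 to Cytb, which does not hold Nd1, was 2.38 to 3.43 at day 0, 3.83 to 5.27 at day 2, 3.73 to 7.50 at day 6 and 1.83 to 2.92 at day 15.

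Nd4 and Nd5 lie between Co1 and Cytb. Nd4 was at 0.514 to 0.699 counts per Nd1 count at day 15 against 0.224 to 0.320 at day 0, a log2 difference of 1.14 ± 0.09 (adjusted p = 3.75e-05, exact permutation test, as for all ratios here). Nd5 was at 0.880 to 1.28 at day 15 against 0.404 to 0.689 at day 0, a log2 difference of 1.06 ± 0.18 (adjusted p = 3.75e-05). Neither overlapped between these days. Nd2, the neighbour of Nd1, differed less, by 0.59 ± 0.21 (adjusted p = 6.43e-05), with 0.537 to 0.736 at day 15 against 0.324 to 0.558 at day 0. Genes in order of the genome gave differences from Nd1 of 0.59 for Nd2, 0.68 for Co1, 1.14 for Nd4, 1.06 for Nd5 and 1.01 for Cytb.

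Co1 departed from Nd1 earlier. Its ratio to Nd1 was 3.11 to 4.98 at day 2 against 2.21 to 3.47 at day 0, a log2 difference of 0.61 ± 0.06 (adjusted p = 3.75e-05, exact permutation test). The differences from day 0 were 0.78 ± 0.16 at day 6 and 0.68 ± 0.16 at day 15 (adjusted p = 3.75e-05 each, exact permutation test), and only at day 6 did the 12 libraries not overlap with those of day 0. The ratio of Cytb to Nd1 did not pass the test at days 2 and 6, with log2 differences of 0.05 ± 0.05 (adjusted p = 0.462, exact permutation test) and -0.08 ± 0.11 (adjusted p = 0.118, exact permutation test). Nd4, Nd5 and Nd2 were 0.23 to 0.52 above day 0 relative to Nd1 at days 2 and 6. Without the 6 libraries whose GC slope, described next, exceeded 0.15, every one of the 18 ratio tests kept its direction and its side of the threshold. The same was true without the 10 libraries whose slope lay beyond 0.15 in either direction, and with day labels exchanged only between libraries of the same genotype and replicate number. Markers of neurons, neural progenitors and glia, mesenchyme and endoderm were mostly higher at day 15 than at day 0 in E14 (7, 8, 8 and 7 of 8 called higher), and naive pluripotency markers were lower (7 of 8). Over all genes 36.5% rose and 33.2% fell. A further list, of heart muscle markers, summed to 89.29 to 125 CPM in E14 at day 15 against 53.05 to 66.83 CPM at day 0. By these markers, day 15 libraries hold other cells than day 0 libraries. The part of cell makeup in the ratios was not tested.

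**Figure D4:**
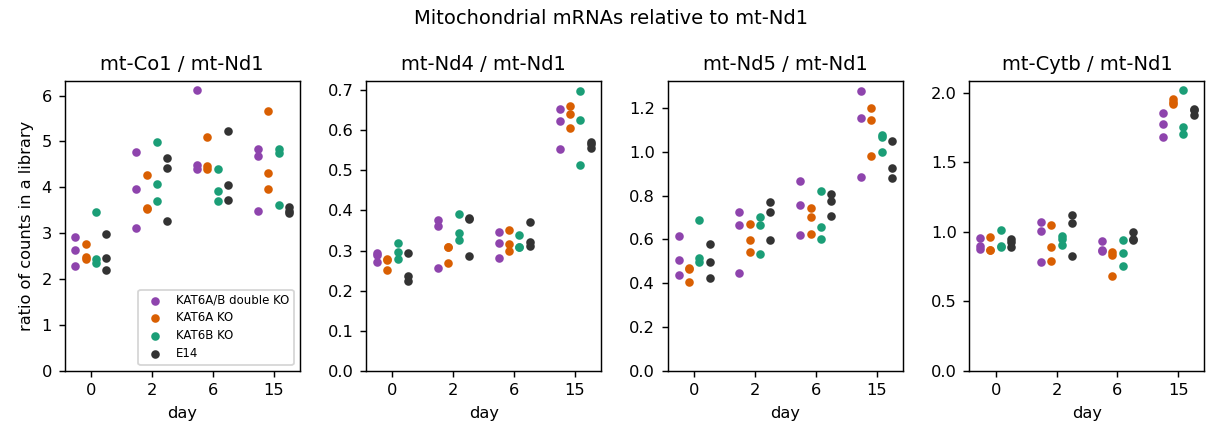
Counts of Co1, Nd4, Nd5 and Cytb divided by those of Nd1 in the same library (y axes from 0) by day (x axis), 12 libraries a day coloured by genotype. At day 15 Nd4 (0.514 to 0.699), Nd5 (0.880 to 1.28) and Cytb (1.68 to 2.02) lie above every library of the earlier days, and Co1 is above its day 0 median of 2.48 in all libraries of days 2, 6 and 15.

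Nd6, the gene of the opposite strand, followed the other well counted genes in some libraries and not in others. In E14 at day 0, replicate 1 had the lowest sum of the others (5345 CPM) and the highest Nd6 (556 CPM). In the KAT6B knockout at day 2, replicate 2 was highest in both (33970 CPM and 466.6 CPM). Nd6 was the least variable of the 7 well counted genes, with 150.3 to 556 CPM, a 3.70-fold range, where the others spanned 5.52-fold (Nd5) to 11.9-fold (Nd2). Its share of mitochondrial counts was 1.09% to 9.41%. The highest shares were in replicate 1 libraries, namely E14 at day 0 (9.41%), the double knockout at day 6 (8.78%), E14 at day 6 (5.32%), the KAT6B knockout at day 15 (5.20%), the KAT6A knockout at day 15 (4.49%) and the KAT6B knockout at day 6 (4.05%). All other libraries lay at 2.67% or below. Replicate 1 had the highest Nd6 share of its group in 12 of 16 groups and the lowest mitochondrial share in 9. Nd6 lies between genes read from the other strand, so its counts can depend on the strand setting of the counting. That setting is not given in the sources used here, and its part in the Nd6 values was not tested. As a ratio to Nd1 over all 12 libraries a day, Nd6 was 1.18 ± 0.43 higher at day 6 than at day 0 on the log2 scale (adjusted p = 0.00275, exact permutation test) and 0.83 ± 0.91 higher at day 15 (adjusted p = 0.031, exact permutation test, in 3 of 4 genotypes). The day 15 value lost its call when any 1 of 5 libraries was left out, which are replicates 2 and 3 of E14 at day 0, replicate 1 of E14 at day 15, replicate 3 of the KAT6A knockout at day 0 and replicate 1 of the KAT6A knockout at day 15.

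These libraries also stood apart in a measure that covers all genes. For each library the GC slope is the change of the log2 deviation of genes from their group mean per 10 points of transcript GC content, over 12308 genes. The slope was highest in replicate 1 in 14 of 16 groups, and the library with the highest Nd6 share of its group was also that with the highest slope in 14 of 16. The slope exceeded 0.15 in 6 libraries, of which replicate 1 of E14 at day 0 had the highest (0.297). The GC content of the mitochondrial genes themselves is 31.9% to 41.1%, and that of Nd6 is 34.1%. The slopes are taken within groups, so each high one is balanced by low ones, and the lowest was -0.295 in replicate 2 of E14 at day 0. The GC correction, which unlike the slope is not taken within groups, changed the calls. In E14 alone it left 2 members higher at day 2, 8 lower at day 6 and 3 lower at day 15. The shares of all genes called with it in E14 alone are not given here. In the fit over 4 genotypes the correction left 2 higher at day 2 (Co1, 0.61, adjusted p = 0.000194, edgeR, and Co2), 11 lower at day 6 and 10 lower at day 15. Over all genes, 10788, 16328 and 18764 of 22626 were called at these days, in either direction. Without the 6 libraries the fit over 4 genotypes called 8 members higher at day 2, 9 lower and 1 higher (Nd6, 0.31, adjusted p = 0.0497, edgeR) at day 6, and 3 lower at day 15. There, 10750, 16180 and 18724 of 23043 genes were called at days 2, 6 and 15, in either direction.

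**Figure D5:**
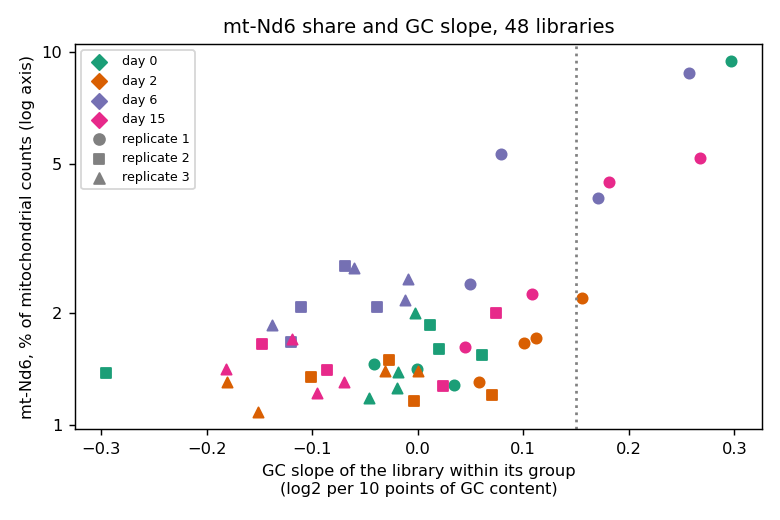
Share of Nd6 in the mitochondrial counts (y axis, log scale) against the GC slope of the library within its group (x axis), 48 libraries with days as colours and replicates as symbols, the dotted line at 0.15. All 6 libraries right of the line are replicate 1, and their Nd6 shares run from 2.20% (KAT6A knockout at day 2) to 9.41% (E14 at day 0).

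The comparison of each knockout with E14 asks which genes the acetyltransferases affect, and no mitochondrial gene passed the test in any of the 12 comparisons (edgeR, adjusted p under 0.05). DESeq2 called 0 in each of them as well. At an unadjusted p under 0.05 the counts at day 0 were 5, 1 and 2 of 13 members for the double, KAT6A and KAT6B knockouts, at day 2 they were 0 for each, at day 6 they were 0, 1 and 1 of 12, and at day 15 0 for each. The share of all genes at an unadjusted p under 0.05 was not computed, so these counts have no share to stand beside. At an adjusted p under 0.05, the share of all genes called was 2.09%, 0% and 0.0106% at day 0, and 1.12%, 0.0102% and 0% at day 2. It was 0.0682%, 0% and 0.0292% at day 6, and 3.18%, 0% and 0.0742% at day 15, in the same order of genotypes.

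At day 0 the 6 heavily counted mRNAs other than Nd6 were higher in each knockout than the E14 mean, and overlapped with E14 in all 7 genes, where 18.1%, 11.5% and 13% of all genes did not overlap with E14 in the double, KAT6A and KAT6B knockouts. The median log2 fold change of the 7 genes was 0.59 in the double knockout, 0.35 in the KAT6A knockout and 0.56 in the KAT6B knockout, where the median over all genes was 0, -0.01 and 0. Co1 averaged 7170 ± 663 CPM in the double knockout, 6411 ± 357 CPM in the KAT6A knockout, 7037 ± 855 CPM in the KAT6B knockout and 4645 ± 2148 CPM in E14 (SD, n = 3 each). Its log2 fold change was 0.59 ± 0.23 in the double knockout (adjusted p = 0.18, edgeR), 0.40 ± 0.23 in the KAT6A knockout (adjusted p = 0.93, edgeR) and 0.56 ± 0.23 in the KAT6B knockout (adjusted p = 0.371, edgeR). Nd5 in the KAT6B knockout (0.62 ± 0.24, adjusted p = 0.362, edgeR) did not pass either. All 3 share the same E14 libraries. Nd6 had log2 fold changes of -0.52 ± 0.31, -0.77 ± 0.31 and -0.55 ± 0.31 in the double, KAT6A and KAT6B knockouts. These values rest on replicate 1 of E14, at 556 CPM, with 223.8 and 207.9 CPM in replicates 2 and 3. The knockouts averaged 236.2, 203.3 and 232.7 CPM in the same order. Without replicate 1 of E14 at day 0 the median of the 7 was 0.26 in the double knockout and 0.22 in the KAT6B knockout with no member called. Without replicate 2 of E14 at day 0 it was 1.00 and 0.97, and 9 and 5 members were called.

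The smallest p in the double knockout at day 0 belonged to copied genes and to a single library. Atp6 was at 20.16, 4.709 and 6.954 CPM in the double knockout against 1.072, 4.702 and 3.466 CPM in E14 (log2 fold change 1.72 ± 0.50, adjusted p = 0.0866, edgeR). Atp8 was at 20.93, 1.17 and 0.8303 CPM in the double knockout against 0.4385, 1.385 and 1.125 CPM in E14 (2.89 ± 0.97, adjusted p = 0.137, edgeR). In both genes replicate 1 of the double knockout was far the highest, with 734 Atp8 counts. Similar single high libraries were replicate 2 of the KAT6B knockout at day 2 for Atp8 (12.08 CPM) and Co3 (29.31 CPM), and its replicate 2 at day 6 for Co3 (15.56 CPM against 1.54 ± 0.50 CPM in E14, SD, n = 3).

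At days 2 and 6 the median log2 fold changes of the 7 genes were positive in each knockout, and no gene passed the test. At day 2 they were 0.25, 0.30 and 0.22 in the double, KAT6A and KAT6B knockouts, with Co1 at 0.25 ± 0.35, 0.35 ± 0.35 and 0.26 ± 0.35. The 2 smallest p at day 2 belonged to copied genes in each knockout, and of these Co2 in the KAT6A knockout did not overlap with E14 (16.92 ± 4.13 CPM in the knockout against 10.96 ± 0.30 CPM in E14, SD, n = 3 each, 0.62 ± 0.33, adjusted p = 0.532, edgeR), where 20.1% of all genes did not. At day 6 the medians were 0.22, 0.35 and 0.52. Of the 7 genes, 3 did not overlap with E14 in the KAT6A knockout at day 6, where 11.6% of all genes did not overlap. Nd1 was at 1143, 1765 and 1330 CPM in the KAT6A knockout against 993.9, 1028 and 1079 CPM in E14 (0.42 ± 0.38, adjusted p = 0.831, edgeR). Nd4 was at 400.8, 526.2 and 421.9 CPM in the KAT6A knockout against 308.9, 381.4 and 347.7 CPM in E14, and Nd5 at 848.5, 1099 and 936.5 CPM against 768.4, 831.2 and 764.6 CPM. In the KAT6B knockout Co3 had the smallest p at day 6 (2.13 ± 0.82, adjusted p = 0.302, edgeR), from the single library named above. In the double knockout Atp8 (0.87 ± 0.72) and Co3 (0.89 ± 0.81), and in the KAT6A knockout Atp8 (1.87 ± 0.72) and Atp6 (0.79 ± 0.45), had the smallest p at this day, and all are copied genes.

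At day 15 the medians of the 7 genes were below 0, at -0.17 in the double knockout, -0.17 in the KAT6A knockout and -0.28 in the KAT6B knockout, and no member passed. In the double knockout 2 of the 7 genes lay below all E14 libraries, where 42.2% of all genes did not overlap. Cytb was at 2170, 2032 and 2319 CPM in the double knockout against 2717, 2525 and 3066 CPM in E14 (-0.37 ± 0.30, adjusted p = 0.454, edgeR). Nd2 was at 708, 827.7 and 939.4 CPM in the double knockout against 967, 956.8 and 1160 CPM in E14 (-0.33 ± 0.37, adjusted p = 0.594, edgeR). Nd6 had the smallest p in the KAT6B knockout, with 227.1 to 315.8 CPM in the knockout against 150.3 to 203 CPM in E14 (0.52 ± 0.31, adjusted p = 0.367, edgeR), and with Nd1 it made 2 of the 7 genes that did not overlap there, where 29.3% of all genes did not. In the KAT6A knockout Nd4l (-0.78 ± 0.53) and Nd6 (0.44 ± 0.31) had the smallest p. The knockout and E14 libraries differed in markers at this day. The neuron marker sum was 144 to 861.8 CPM in the double knockout, 336.4 to 1334 CPM in the KAT6A knockout, 65.22 to 909.4 CPM in the KAT6B knockout and 1406 to 2486 CPM in E14, and the mesenchyme sum was 7315 to 8212 CPM in the double knockout, 2458 to 6557 CPM in the KAT6A knockout, 4481 to 18310 CPM in the KAT6B knockout and 1601 to 4234 CPM in E14. The part of these cells in the mitochondrial levels was not tested.

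The change between days 0 and 15 in each knockout was also tested against that of E14, and 0 members passed in the double, KAT6A and KAT6B knockouts (edgeR, and DESeq2 also called 0; 1, 0 and 1 at an unadjusted p under 0.05). The share of all genes called at an adjusted p under 0.05 was 2.51%, 0% and 0.0436%, and that at an unadjusted p was not computed. The median of the 7 genes was -0.81, -0.60 and -0.95 on the log2 scale, with Cytb at -0.85 ± 0.42 in the double knockout (adjusted p = 0.271, edgeR). All 3 values contain the same E14 libraries of day 0, and in the double knockout 2 members were called lower without replicate 2 of that group.

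Nuclear genes that make or serve the mitochondrial transcripts were mostly lower in E14 at day 15 than at day 0. The lists were written from textbook knowledge, and each is described by its counts beside those over all genes. Of 18 genes of mitochondrial transcription and the nucleoid, 1 rose and 12 fell at day 15, where 36.5% of all genes rose and 33.2% fell, and their median log2 fold change was -1.07 against 0.08 over all genes. Tfam, which packs mitochondrial DNA and starts its transcription, was at 33.7 ± 1.5 CPM at day 15 against 96.3 ± 2.8 CPM at day 0 (-1.49 ± 0.11, adjusted p = 4.67e-08, edgeR). Tefm, the elongation factor of the mitochondrial RNA polymerase, was at 8.09 ± 0.72 CPM at day 15 against 29.4 ± 0.8 CPM at day 0 (-1.83 ± 0.16). Mgme1, an exonuclease of mitochondrial DNA, was at 5.69 ± 0.69 CPM at day 15 against 37.2 ± 2.6 CPM at day 0 (-2.67 ± 0.15).

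Of 21 genes of mitochondrial RNA processing and stability, 0 rose and 18 fell at day 15 (median -1.03). For this and the next lists, 36.5% of all genes rose at day 15 and 33.2% fell. Elac2, the nuclease that cuts the 3′ ends of tRNAs out of the precursor, was at 47.4 ± 3.6 CPM at day 15 against 204 ± 35 CPM at day 0 (-2.07 ± 0.16, adjusted p = 7.4e-08, edgeR). Prorp, the nuclease of the 5′ ends, was at 11.6 ± 0.7 CPM at day 15 against 39.7 ± 9.5 CPM at day 0 (-1.74 ± 0.17), and Tbrg4 at 64.2 ± 4.6 CPM against 233 ± 51 CPM (-1.83 ± 0.18). Of 13 genes of mitochondrial tRNA modification 0 rose and 11 fell (median -1.10), led by Qtrt1 (-1.89 ± 0.21), Pus1 (-1.81 ± 0.24) and Cdk5rap1 (-1.43 ± 0.16). Of 10 regulators of mitochondrial biogenesis 1 rose and 7 fell (median -0.93), with Pprc1, a coactivator of that programme, at 118 ± 15 CPM at day 15 against 461 ± 44 CPM at day 0 (-1.94 ± 0.15). Tfeb (-1.91 ± 0.26) and Gabpa (-1.54 ± 0.13) were lower as well.

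The nuclear subunits that assemble with the mitochondrial proteins were mostly lower too. Of 22 nuclear core subunits of complexes I, III, IV and V, 0 rose and 20 fell at day 15 (median -0.67), where 36.5% of all genes rose and 33.2% fell. Among the 7 well counted mitochondrial genes 3 rose and 1 fell in the same fit (median 0.45). The 3 rises of 7 are not far from the share of all genes that rose. Cyc1, the cytochrome c1 that works beside Cytb in complex III, was at 75.8 ± 1.5 CPM at day 15 against 208 ± 51 CPM at day 0 (-1.43 ± 0.16, adjusted p = 2.37e-06, edgeR). Atp5b, the catalytic subunit of the ATP synthase, was at 786 ± 50 CPM at day 15 against 1703 ± 160 CPM at day 0 (-1.09 ± 0.11), and Cox7c of complex IV at 61.0 ± 2.5 CPM against 174 ± 51 CPM (-1.49 ± 0.18). Since the mitochondrial median of E14 rests on its day 0 libraries, the value of the 4-genotype fit stands beside it, in which 0 of the 7 rose and 1, Nd1, fell. With GC correction none of the 3 mitochondrial rises in E14 was called, and Nd1 (-0.88) and Nd6 (-2.42) were lower. In the GC-corrected 4-genotype fit Nd1, Nd2, Nd6, Co1, Nd4 and Nd5 were lower and Cytb did not pass. The values of the nuclear lists are without GC correction.

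The same lists were already lower at day 6, with 9 of 18 transcription and nucleoid genes, 16 of 21 processing genes, 8 of 13 tRNA modification genes, 6 of 10 regulators and 13 of 22 nuclear subunits lower, and 1, 0, 0, 1 and 0 higher, where 25.8% of all genes rose and 24.2% fell. At day 2, 1, 3, 1, 3 and 3 members of the same lists were lower and 1, 0, 0, 1 and 0 higher, where 9.5% of all genes rose and 12.1% fell. The mitochondrial RNA polymerase gene Polrmt was lower at day 2, with 46.0 ± 3.4 CPM at day 2 against 82.0 ± 19.0 CPM at day 0 (-0.85 ± 0.15, adjusted p = 0.00251, edgeR), and Elac2 was at 95.2 ± 19.2 CPM at day 2 against 204 ± 35 CPM at day 0 (-1.12 ± 0.15). Myc, a driver of growth and of mitochondrial biogenesis, was at 25.9 ± 5.0 CPM at day 2 against 104 ± 26 CPM at day 0 (-2.02 ± 0.32). Primpol, a primase-polymerase found in nucleus and mitochondria, was the transcription and nucleoid gene that rose, to 19.4 ± 1.5 CPM at day 2 against 10.4 ± 3.0 CPM at day 0 (0.88 ± 0.20).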

How the data were processed

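RNA depleted of ribosomal RNA was sequenced as 150-base paired reads with a directional kit, per the labels' protocols. Raw counts per gene are in 1 table deposited for all libraries, and HISAT2 and GRCm39 are named in the submitters' processing notes. For the counting program, its strand setting and its treatment of reads with several alignments, the sources used here give nothing. Of 36983 rows, 48 repeat an identifier and were left out, and totals ran from 22.5 to 72.23 M counts, so the spread between libraries, not counting error, limits precision for the 7 well counted genes, while Nd3, Nd4l and Atp8 are limited by few counts.

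The members and lists were chosen with earlier results of these data known. The design had foreseen rRNA and tRNA genes, but the 13 members are all protein genes. Counts were tested with edgeR 4.0.16 (R 4.3.3) quasi-likelihood F tests, with genes kept at a minimum count of 10 and total of 15, TMM scaling, Benjamini-Hochberg adjustment over all genes and calls at adjusted p under 0.05. Fits held the 12 E14 libraries, the 12 libraries of a day, or the 12 libraries of a knockout and E14 at days 0 and 15. Levels are TMM-scaled CPM over 48 libraries. Named genes were up to 4 called members per direction, the 2 of smallest p where none was called, Nd6 always, and up to 3 called genes of each list with at least 5 CPM. Nuclear copies of the members were found by aligning GENCODE M21 transcripts, on GRCm38. A list of nuclear copies had 1 member in the table and it was not tested. The scripts were tested on simulated data. The fit over 4 genotypes, the ratios, the GC correction and the fits without 6 libraries were added after the data were seen. DESeq2 1.42.0 and other alternatives are given below.

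Replicates are 3 differentiations, and whether equal numbers mark the same one is not stated. Same-numbered libraries deviated together (every correlation over 0.1) in the double knockout and E14 at day 6 only.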

Additional observations from a re-analysis of the deposited data

How the results depend on the processing

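The calls of the time course depend on its libraries and settings. The ratios to Nd1, tried under fewer settings, kept their calls except that of Nd6 at day 15. At day 2 in E14, 3 members were called, against 5 with a replicate block, 1 without the 6 libraries of GC slope above 0.15, 5 with all 48 libraries in an additive fit, and 0 to 8 with 1 library left out. At day 6, 3 were called, against 0 with library totals, 0 with no filter, 8 with GC correction, 1 with only the 2 groups compared, 6 without the 6 libraries, 9 in the additive fit, and 0 to 6 with 1 library left out. At day 15, 5 were called, against 1 with no filter, 3 (all lower) with GC correction, 2 with only the 2 groups compared, 1 without the 6 libraries, 3 in the additive fit, and 0 to 9 with 1 library left out. Nd4 in E14 at day 15 turned to -0.09 (log2) with GC correction. The fit over 4 genotypes called 8 in place of 5 at day 2 without the 6 libraries and 2 with GC correction, 4 in place of 9 at day 6 with library totals, and 10 (all lower) in place of 3 at day 15 with GC correction. The knockouts had 0 calls under every setting except without replicate 2 of E14 at day 0, which gave ranges of 0 to 9 (double knockout, day 0), 0 to 5 (KAT6B knockout, day 0) and 0 to 2 (double knockout, change to day 15). The Nd6 to Nd1 difference at day 15 ran from 0.66 to 1.06 with 1 library left out. Every other ratio test kept its side of the threshold in the settings tried, and those that passed kept their direction. These settings left out libraries or paired them by replicate number. The GC correction was not applied to the ratios, so their dependence on it was not tested. With library totals, 56.7% of all E14 calls at day 2 were higher (44% with TMM) and 70.7% at day 6 (51.6% with TMM), and the median over all genes moved to 0.26 at day 15 and to -0.17 in the double knockout at day 15. The cause of these shifts was not tested. Replicate numbers deviated together in the double knockout and E14 at day 6 only, where the replicate block called 0 members as well. Elsewhere not every pair correlated, yet replicate 1 had the highest GC slope in 14 of 16 groups. With a replicate block the fit over 4 genotypes called 6, 9 and 4 members at days 2, 6 and 15, where 10745, 16401 and 18702 of 22626 genes were called. Nd4 was added at day 2 (adjusted p = 0.0417, edgeR) and Atp6 at day 15 (adjusted p = 0.0435, edgeR). Genes with few counts (Nd3, Nd4l, Atp8) are limited by depth.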
